A study of Homo sapiens with 6 samples.

Results

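The 7 genes of the JUN and FOS families, JUN, JUNB, JUND, FOS, FOSB, FOSL1 and FOSL2, were read from a table of 26391 genes by their symbols, and all 7 were found once each. Their mRNAs were read by RNA sequencing after poly-A selection in HEK293T, an established line from human embryonic kidney that expresses SV40 large T antigen. In the LOC550643 siRNA group (3 libraries) the cells had received, at 50% confluency, 4 pooled siRNAs to LOC550643, and in the control siRNA group (3 libraries) a non-silencing siRNA, and both groups were lysed 48 hours later. LOC550643 is the gene of NBDY, a short polypeptide that binds EDC4, which helps assemble the enzymes that remove mRNA caps. The study looked for differences in steady-state expression upon its silencing. Both groups rest on 1 line, 1 pool and 1 control siRNA, so what the loss of LOC550643 does and what else these reagents do cannot be told apart. In bulk RNA, fewer cells that express a gene and less of its RNA per cell cannot be told apart either.

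JUN and FOS proteins are basic leucine zipper (bZIP) transcription factors that pair up to form AP-1. JUN proteins can pair with each other or with FOS proteins, whereas FOS proteins need a JUN partner, so the mix of members decides which dimers a cell can build. Several of these genes are immediate-early genes, induced within minutes by growth factors or stress through MAP kinases, and some of their mRNAs, FOS above all, are known for rapid decay through AU-rich elements in the 3′ UTR. JNK phosphorylates JUN, and JUN in turn acts on its own promoter.

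LOC550643, listed under its earlier symbol LINC01420, stood at 5.86, 6.00 and 5.37 CPM (deposited values rescaled to a common library total) in the LOC550643 siRNA libraries, against 56.2, 50.5 and 52.1 CPM in the control libraries. The target was thus lower in every library that received the pool (log2 fold change -3.20, limma adjusted p = 1.29e-09). The LOC550643 siRNA libraries held 35249993, 30739321 and 8604236 read pairs in genes and the control libraries 32309964, 33421162 and 36082404, as inferred from the values, which makes LOC550643 siRNA replicate 3 the shallowest. By a chi-square of counts, which grows with depth, control replicate 2 differed most from its group, and on the first principal components LOC550643 siRNA replicate 3 did. Member results are given without each of them where they matter. Markers of the line were present: VIM averaged 870.0 and 813.0 CPM and NEFL 105.2 and 103.0 CPM in LOC550643 siRNA and control libraries, and all 7 markers of the line that were looked at exceeded 1 CPM. Of these 7, KRT18 and NEFM were higher and CDH2 lower with LOC550643 siRNA. Of other cell types, the 4 endothelial markers summed to 0.59 to 1.06 CPM in LOC550643 siRNA libraries and 2.32 to 3.16 CPM in control libraries, nearly all of it KDR, with PECAM1 and CDH5 at or near 0. The 5 leukocyte markers summed to 1.97 to 2.44 and 2.25 to 3.30 CPM, with PTPRC and CD3E at or near 0. The 6 fibroblast markers summed to 67.5 to 73.2 and 70.3 to 77.8 CPM, mostly COL1A1, with COL1A2 at or near 0. The part of these markers in the results was not tested.

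After LOC550643 siRNA, JUN rose 2.32-fold, FOSL2 1.62-fold and JUND 1.34-fold, and FOSL1, the least abundant member, fell. JUNB, FOS and FOSB did not pass the test. All 7 members passed the filter on low values, and FOSL1 was nearest to its cutoff, with 2 of 3 LOC550643 siRNA libraries and 3 of 3 control libraries at or above it. Calls use limma on log2(value + 1 deposited unit) with p-values adjusted over all 16245 genes tested, at an adjusted p under 0.05. In all, 4 of the 7 were called, where 35.3% of all genes tested were. The 3 members called higher stand against 17.1% of all genes tested called higher, and the 1 called lower against 18.2% called lower. Of all calls 48.5% were higher, and 34.4% with library totals alone as the scaling. Their 7 log2 fold changes had a median of 0.34, where the median over all genes tested was -0.02. That 0.34 is the value of FOSB, which did not pass.

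**Figure D1:**
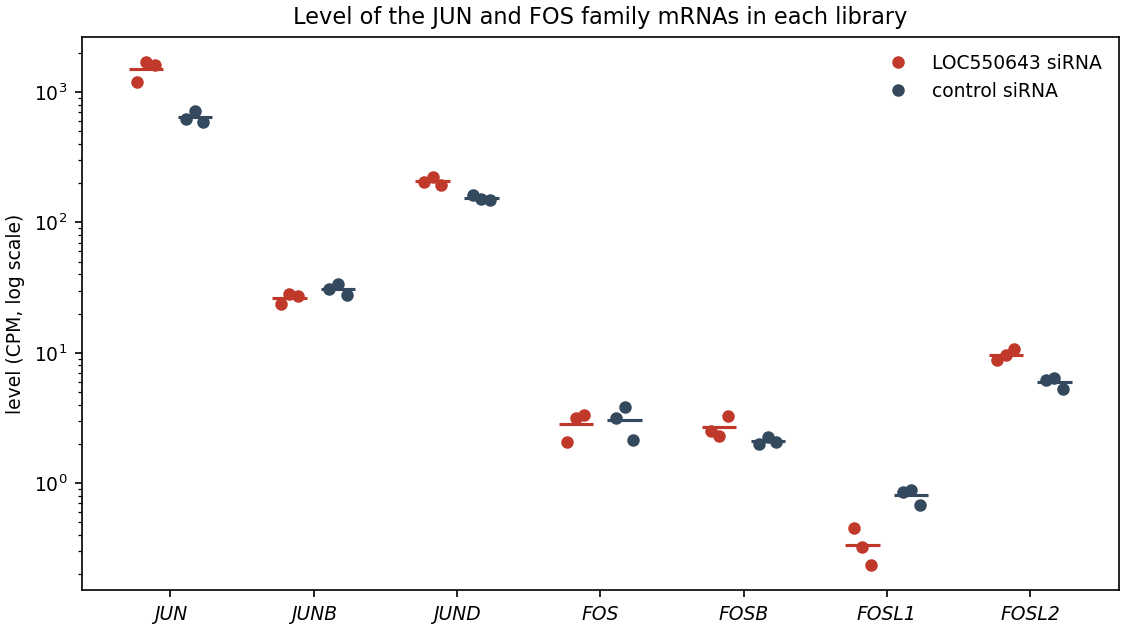
Level of each member in each library, in CPM on a log axis, with LOC550643 siRNA libraries in red on the left and control siRNA libraries in dark blue on the right; points are libraries and bars are means. JUN lies far above the rest at 1185 to 1703 CPM with LOC550643 siRNA and 592.6 to 710.5 CPM with control siRNA, and FOSL1 lies under 1 CPM in every library.

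JUN, the founding member of AP-1, is a gene without introns on the minus strand of chromosome 1, 59246463 to 59249785 (hg19). JUN mRNA stood at 1185, 1703 and 1622 CPM in the LOC550643 siRNA libraries, against 625.4, 710.5 and 592.6 CPM in the control libraries. Every LOC550643 siRNA library lay well above every control library, and the spread was wider with LOC550643 siRNA (1503 ± 278 CPM) than with control siRNA (642.9 ± 60.8 CPM; SD, n = 3 each). The log2 fold change was 1.21 (SE 0.13, 95% interval 0.93 to 1.49, limma adjusted p = 2.98e-05). It was 1.27 without control replicate 2 and 1.15 without LOC550643 siRNA replicate 3. By mean level JUN ranked 44 among the 16245 genes tested, and by fold change it ranked 57 from the top. JUN and FOSL1 are the members that meet the authors' own rule of an adjusted p under 0.05 and a log2 fold change beyond 1. The authors' deposited table lists JUN at 1.22 (adjusted p = 2.01e-19), where 0.443% of all rows were higher by that rule. It lists FOSL1 at -1.08 (adjusted p = 0.00769), where 1.52% were lower. These shares are over all 26391 rows, of which 10146 were too low to be tested here, 4787 of them at 0 in every library.

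JUND, a broadly expressed member known to be less dependent on stimulation than JUN, is a gene without introns on chromosome 19, 18390504 to 18392466, minus strand. It stood at 203.9, 222.1 and 195.4 CPM with LOC550643 siRNA, against 161.2, 152.4 and 148.5 CPM with control siRNA. The groups did not overlap, and the distance between them was small beside that of JUN (log2 fold change 0.43, SE 0.08, 95% interval 0.26 to 0.59, limma adjusted p = 0.000967). Among all genes tested, 23.3% had groups that did not overlap in the upward direction, as did 4 members, JUN, JUND, FOSB and FOSL2. A further 24.8% of genes did not overlap in the downward direction, as did FOSL1.

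JUNB, which can oppose JUN at some targets, also lacks introns and lies on chromosome 19, 12902310 to 12904125, plus strand. It stood at 23.5, 28.3 and 27.4 CPM with LOC550643 siRNA, against 30.9, 33.6 and 27.9 CPM with control siRNA. The highest LOC550643 siRNA library was above the lowest control library, so the groups overlapped, and the difference did not pass (log2 fold change -0.22, SE 0.10, 95% interval -0.44 to -0.01, limma adjusted p = 0.0971). With library totals alone as the scaling it passed at -0.30 (limma adjusted p = 0.036), and with all libraries thinned to the depth of the shallowest at -0.27 (limma adjusted p = 0.0422). In the GENCODE annotation HOOK2 runs across JUNB on the opposite strand, and HOOK2, at 27.0 to 41.5 CPM, was higher with LOC550643 siRNA (log2 fold change 0.45, limma adjusted p = 0.0013). The deposited table's entry for HOOK2 does not reach JUNB, and whether exons of the 2 genes overlap was not checked. The sources used here do not give how strand was treated in the authors' counting, so reads of any shared exon could not be separated.

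The sequence just upstream of the start site is shown for JUN and JUND, which rose and whose windows hold a CRE-type site, and around the start for FOSL2, which rose and holds an AP-1 site there. Promoters are from RefSeq (GRCh38.p14), 5′ to 3′ on the gene's strand, with the match in capitals.
JUN promoter, chr1:58784048-58784297, minus strand: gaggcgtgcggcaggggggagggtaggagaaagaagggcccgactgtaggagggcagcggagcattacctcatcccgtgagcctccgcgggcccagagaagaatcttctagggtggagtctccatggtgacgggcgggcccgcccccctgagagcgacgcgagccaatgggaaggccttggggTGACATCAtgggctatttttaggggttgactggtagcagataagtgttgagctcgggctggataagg
JUND promoter, chr19:18281623-18281872, minus strand: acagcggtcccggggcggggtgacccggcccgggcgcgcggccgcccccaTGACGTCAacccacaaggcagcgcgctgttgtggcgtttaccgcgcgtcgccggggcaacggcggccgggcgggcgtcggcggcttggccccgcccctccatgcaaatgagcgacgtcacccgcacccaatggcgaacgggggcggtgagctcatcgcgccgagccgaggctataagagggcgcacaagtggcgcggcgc
FOSL2 start site, chr2:28392851-28392880, plus strand: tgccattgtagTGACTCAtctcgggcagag

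The CRE-type site searched was TGACNTCA and the AP-1 site TGANTCA, both strands, in the 250 bases before the start. These patterns differ in length and cannot be the same match. JUN held 1 CRE-type match, TGACATCA, which begins 67 bases before the start, and JUND held 1, TGACGTCA, which begins 200 bases before it. Of 35116 promoters in the table, 6.87% held a CRE-type match and 6.57% an AP-1 match. The windows of JUNB, FOS, FOSB and FOSL2 held neither, and 6 of the 7 members had an entry, FOSL1 being the other. The FOSL2 match TGACTCA begins at base 5 of the transcript, outside the window counted. How many of all promoters hold a match there was not counted. The bases just past the start were also searched in JUN, JUNB, JUND, FOS and FOSB, and held no match. As background, JUN with ATF2 is known to bind a variant site of the CRE type in the JUN promoter. A match is letters only, and binding was not measured here.

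FOS, the prototype immediate-early gene, was low in both groups and did not pass the test. It lies on chromosome 14, 75745481 to 75748937, plus strand, and its MANE Select transcript has 4 exons. FOS stood at 2.07, 3.17 and 3.36 CPM with LOC550643 siRNA, against 3.17, 3.81 and 2.16 CPM with control siRNA. The groups overlapped almost fully, with the lowest value in LOC550643 siRNA replicate 1 and the highest in control replicate 2 (log2 fold change -0.08, SE 0.23, 95% interval -0.58 to 0.42, limma adjusted p = 0.815). The sign turned without control replicate 2 (0.08) and without LOC550643 siRNA replicate 1 (0.14), and neither passed. These values rest on 57 to 187 read ends in LOC550643 siRNA libraries and 159 to 264 in control libraries.

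FOSB, a FOS protein also known for a shortened splice form in neurons, lies on chromosome 19, 45971253 to 45978437, plus strand. It stood at 2.52, 2.29 and 3.30 CPM with LOC550643 siRNA, against 1.99, 2.25 and 2.07 CPM with control siRNA. Every LOC550643 siRNA library was above every control library, but by little, and the highest of them was LOC550643 siRNA replicate 3, with 56 read ends. The difference did not pass (log2 fold change 0.34, SE 0.18, 95% interval -0.05 to 0.73, limma adjusted p = 0.162), and it was 0.19 without that library. The table counts all FOSB transcripts together, so splice forms were not separated. ERCC1 runs across FOSB on the opposite strand in the GENCODE annotation, at 59.3 to 75.5 CPM, and did not pass (log2 fold change -0.19, limma adjusted p = 0.0767). The deposited table's entry for ERCC1 does not reach FOSB, and exon overlap was not checked.

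FOSL1, also called FRA1, lacks the strong activation domain of FOS and is prominent in invasive tumour cells. It lies on chromosome 11, 65659607 to 65667997, minus strand. FOSL1 stood at 0.450, 0.322 and 0.236 CPM with LOC550643 siRNA, against 0.861, 0.881 and 0.680 CPM with control siRNA. All LOC550643 siRNA libraries were below all control libraries (log2 fold change -1.22, SE 0.32, 95% interval -1.91 to -0.53, limma adjusted p = 0.0103). The counts are small: 31, 19 and 4 read ends with LOC550643 siRNA and 57, 61 and 50 with control siRNA. In LOC550643 siRNA replicate 3 the 4 ends equal 2 read pairs, with an exact 95% Poisson interval of 0.242 to 7.22 pairs for counting error only. Without control replicate 1 the call was lost (-1.17, limma adjusted p = 0.0541), and without LOC550643 siRNA replicate 3 it was kept at -1.01 (limma adjusted p = 0.0219). On thinned libraries FOSL1 was too low to be tested, and with a pseudocount of 10 deposited units its log2 fold change was -0.77.

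FOSL2, also called FRA2, the other FOS-related antigen, lies on chromosome 2, 28615779 to 28637516, plus strand. It stood at 8.74, 9.59 and 10.7 CPM with LOC550643 siRNA, against 6.19, 6.43 and 5.27 CPM with control siRNA. The lowest LOC550643 siRNA library was above the highest control library, and the difference passed (log2 fold change 0.69, SE 0.13, 95% interval 0.42 to 0.97, limma adjusted p = 0.00109). It was 0.74 without control replicate 2 and 0.62 without LOC550643 siRNA replicate 3, and passed in both. FLJ31356, which the deposited table lists on the opposite strand across the start of FOSL2, was at 0.0434 CPM or less in every library. GENCODE also places a long non-coding RNA, ENSG00000270640, within FOSL2 on the same strand, and its reads were not analysed here apart from those of FOSL2. The authors' deposited table calls the same directions at an adjusted p under 0.05. JUN, JUND (0.43) and FOSL2 (0.67) were higher, where 9.28% of its rows were higher, and FOSL1 was lower, where 10.5% were lower. These shares are over all 26391 rows, of which 10146 were too low to be tested here, so they are not comparable with shares over the genes tested.

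**Figure D2:**
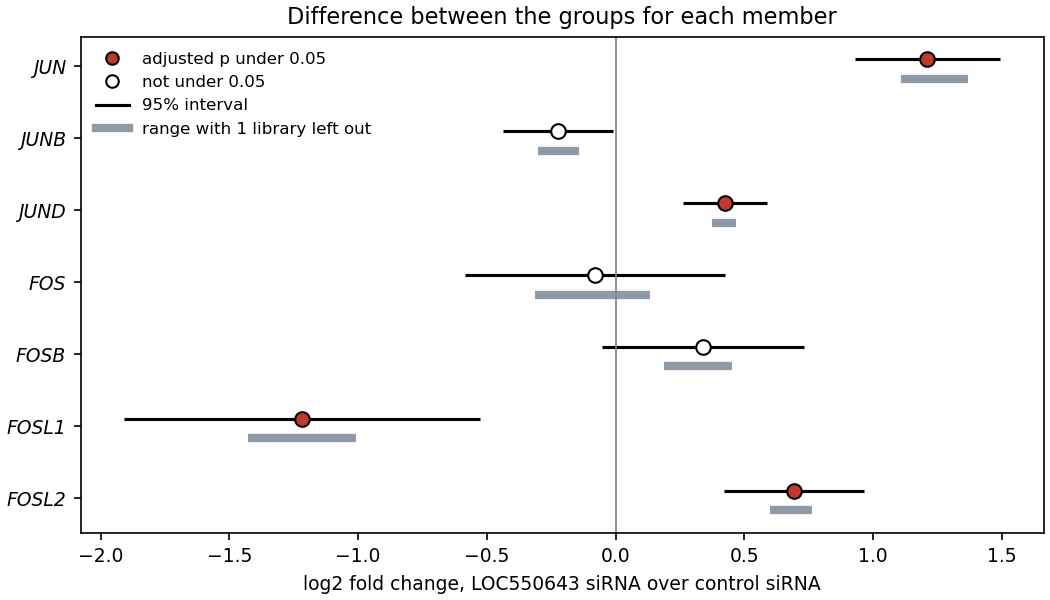
Log2 fold change of each member, LOC550643 siRNA over control siRNA: circles are estimates (red where the adjusted p was under 0.05), black lines 95% intervals and grey bars the range when 1 library at a time was left out. JUN (1.21), FOSL2 (0.69) and JUND (0.43) lie to the right of 0 and FOSL1 (-1.22) to the left, while the grey bar of FOS crosses 0.

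The mRNAs of the family differ in their AU-rich content, shown because such elements are known to mark mRNAs for decay. In MANE Select transcripts (GENCODE on GRCh37), the 3′ UTR of FOS holds 5 ATTTA pentamers in 806 bases and that of FOSL2 9 in 4869 bases, and each holds 1 TTATTTATT nonamer. JUN holds 3 pentamers in 1284 bases, FOSB 3 in 2167, JUNB 2 in 500, JUND 1 in 747 and FOSL1 1 in 837, with no nonamer in these 5. Of 18515 such 3′ UTRs, 68.9% hold a pentamer and 8.64% the nonamer. The 2 members with a nonamer were FOS, which did not pass, and FOSL2, which rose. The first 30 bases with the highest number of pentamers are given for these 2 and for JUN. Pentamers are in capitals, 5′ to 3′ on the gene's strand (GRCh37). In JUN no 30 bases hold more than 1 pentamer, so the stretch shown is the first of its 3. The FOSL2 window lies beyond the end of FOSL2 in the deposited table, so reads there were not counted.
FOS 3′ UTR, chr14:75748750-75748779, plus strand: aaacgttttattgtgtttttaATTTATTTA
FOSL2 3′ UTR, chr2:28639209-28639238, plus strand: agaagaaattgacATTTAttttattATTTA
JUN 3′ UTR, chr1:59247020-59247049, minus strand: tgtttctgaaaattccagaaaggatATTTA

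Per kilobase of exon, the order of levels was JUN, JUND, JUNB, FOSL2, FOS, FOSB and FOSL1 in both groups. With LOC550643 siRNA the levels were 452.8 ± 83.8 CPM per kb for JUN, 105.7 ± 6.96 for JUND, 14.6 ± 1.41 for JUNB, 2.43 ± 0.243 for FOSL2, 1.33 ± 0.323 for FOS, 0.717 ± 0.141 for FOSB and 0.193 ± 0.0617 for FOSL1 (SD, n = 3). With control siRNA they were 193.6 ± 18.3, 78.6 ± 3.31, 17.001 ± 1.58, 1.497 ± 0.153, 1.42 ± 0.387, 0.558 ± 0.0356 and 0.463 ± 0.0637 CPM per kb in the same order (SD, n = 3). In the control libraries FOSL2 (1.32 to 1.61) and FOS (1.00 to 1.77) overlapped and could not be ordered. In the LOC550643 siRNA libraries FOSL2 (2.19 to 2.68) lay above FOS (0.964 to 1.56) throughout. Every other pair of neighbours was apart in both groups.

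The makeup of the JUN family was shifted toward JUN. JUN was 75.3%, 79.9% and 81.0% of the family's level per kb with LOC550643 siRNA, against 65.5%, 68.97% and 66.2% with control siRNA, a difference of 11.9 percentage points between means. JUND was 18.7 ± 2.86% with LOC550643 siRNA and 27.2 ± 1.91% with control siRNA, although its own level rose, and JUNB was 2.56 ± 0.158% and 5.87 ± 0.142% (SD, n = 3 each). The shares of 1 family sum to 100, so they are not separate findings, and no test was run on them. Within the FOS family FOSL2 was 52.1 ± 1.44% with LOC550643 siRNA and 38.3 ± 2.29% with control siRNA, and FOSL1 was 4.28 ± 1.89% and 11.8 ± 0.481% (SD, n = 3 each). FOS, at 23.6% to 31.5% with LOC550643 siRNA and 30.8% to 39.5% with control siRNA, overlapped between the groups. The summed level of the JUN family was 116.0, 137.4 and 114.9 times that of the FOS family with LOC550643 siRNA, against 71.0, 69.1 and 82.6 times with control siRNA, so FOS family mRNA was scarce beside JUN family mRNA in every library.

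**Figure D3:**
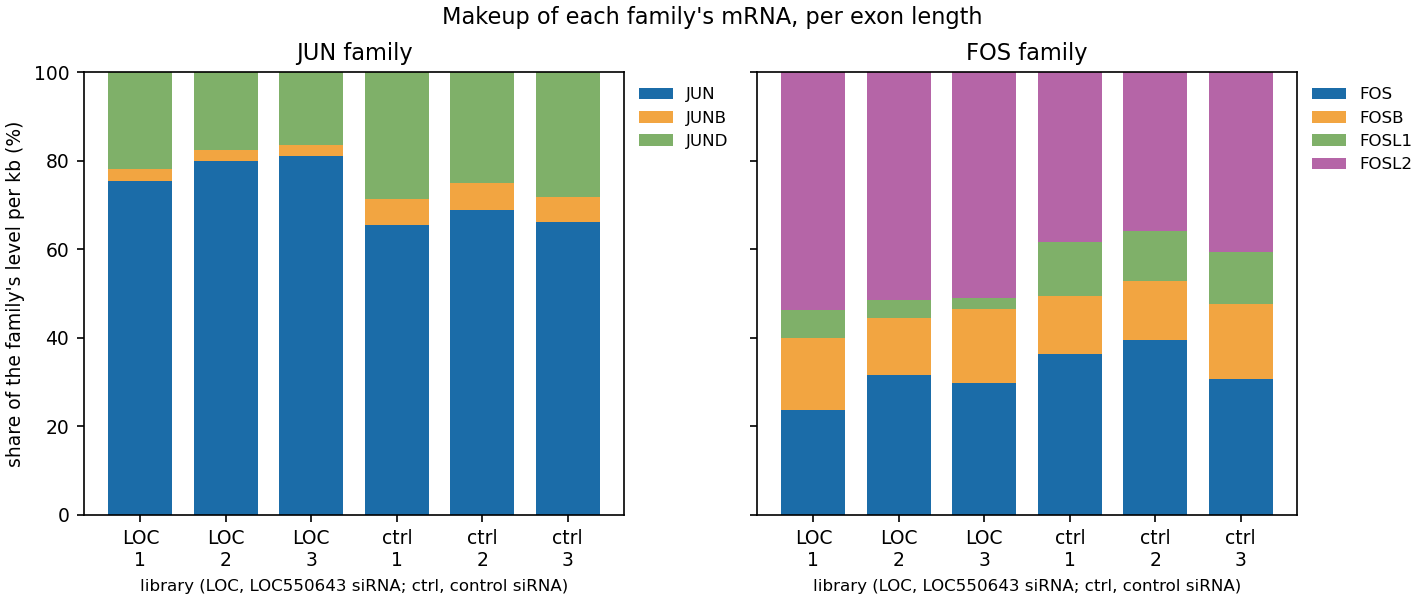
Share of each family's level per kb of exon held by each member, in percent, in each library, with the LOC550643 siRNA libraries (LOC) left of the control siRNA libraries (ctrl). JUN takes 75.3% to 81.0% of the JUN family with LOC550643 siRNA and 65.5% to 68.97% with control siRNA, and FOSL2 takes 51.0% to 53.7% of the FOS family with LOC550643 siRNA and 35.9% to 40.5% with control siRNA.

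The highest and lowest values within each group fell as follows. Among the control libraries replicate 2 held the highest value of 6 of the 7 members, JUND being the exception, and replicate 3 the lowest of 6, FOSB being the exception. Among the LOC550643 siRNA libraries replicate 1 held the lowest value of JUN, JUNB, FOS and FOSL2 and the highest of FOSL1, replicate 2 the highest of 3 members and the lowest of 1, and replicate 3 the highest of 3 and the lowest of 2. The same was not counted over all genes. Over the 6 libraries the log2 values of JUN had a Pearson correlation of 0.975 with those of FOSL2, 0.938 with JUND, 0.735 with FOSB, 0.132 with FOS, -0.482 with JUNB and -0.937 with FOSL1, as a description over libraries that share the group difference.

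The genes whose log2 values were most like those of JUN over the 6 libraries, among 11245 tested genes with a mean of at least 10 CPM, were PMEPA1, MPZL3, LPCAT1, DROSHA and DHCR7 (Pearson correlations of 0.999, 0.999, 0.998, 0.998 and 0.998). All 5 were called higher, as genes chosen for likeness to JUN must nearly be. PMEPA1, a damper of TGF-beta signalling, averaged 22.1 ± 2.14 CPM with LOC550643 siRNA and 13.8 ± 0.849 CPM with control siRNA (SD, n = 3 each). MPZL3, a cell adhesion protein, averaged 23.7 ± 3.43 and 11.3 ± 0.917 CPM, and LPCAT1, a lysophospholipid acyltransferase, 303.9 ± 34.9 and 162.3 ± 9.71 CPM. DROSHA, the nuclear microRNA-processing nuclease, averaged 86.5 ± 5.69 and 63.7 ± 2.80 CPM, and DHCR7, the enzyme of the last step of cholesterol synthesis, 185.8 ± 11.8 and 143.2 ± 2.61 CPM. In all 5, LOC550643 siRNA replicate 1 was the lowest of its group and control replicate 2 the highest of its group, as for JUN. Their choice by likeness to JUN over these libraries nearly fixes that order too.

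The genes around the members are given list by list, and each count stands beside 17.1% of all genes tested called higher, 18.2% called lower and 35.3% called either way. Of 14 other bZIP proteins that pair with JUN or FOS, or compete with them, 13 were tested, 4 rose, 3 fell and 6 did not pass (list median on the log2 scale 0.06), and BATF was at 0 in every library. With 1 library left out, 3 to 4 were called higher and 2 to 3 lower, and DESeq2 called 4 higher and 2 lower. ATF3, a stress-induced partner of JUN, averaged 170.9 ± 5.71 CPM with LOC550643 siRNA and 96.6 ± 3.84 CPM with control siRNA (SD, n = 3 each; log2 fold change 0.82, limma adjusted p = 5.85e-06). MAFK, a small MAF protein, rose by 0.74 and ATF7, a relative of ATF2, by 0.41 on the log2 scale. BATF2, a partner of JUN proteins in immune cells, was at 2.39, 2.85 and 2.36 CPM with LOC550643 siRNA, against 6.60, 6.89 and 7.25 CPM with control siRNA (log2 fold change -1.44).

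Among the kinases that lead from stress and growth signals to JUN and FOS, 8 of 21 rose, 3 fell and 10 did not pass (list median on the log2 scale 0.14). Over all genes tested 17.1% were higher and 18.2% lower. RPS6KA2, an RSK kinase downstream of ERK, averaged 111.0 ± 6.50 CPM with LOC550643 siRNA and 59.0 ± 2.27 CPM with control siRNA (SD, n = 3 each; log2 fold change 0.91, limma adjusted p = 4.25e-06). MAP2K7, an activator of JNK, rose by 0.56, and MAP3K4, which feeds JNK and p38, by 0.50, while MAP3K7 (TAK1) fell by 0.47 on the log2 scale. The mRNA of JNK itself, which phosphorylates JUN, did not pass as MAPK8 (log2 fold change 0.11) or MAPK9 (0.11), and MAPK10, chiefly a neuronal form, rose by 0.57 from a low level. MAPK8, MAPK9 and MAPK10 were looked up after the values were seen. Kinase activity was not measured.

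Of 13 transcription factors known to act at the JUN and FOS promoters, 4 rose, 0 fell and 9 did not pass (list median on the log2 scale 0.05), so the called share was near the 35.3% over all genes tested. ATF1, which binds CRE sites, rose by 0.57, the serum response factor SRF by 0.39, its coactivator MKL1 by 0.39 and MEF2C by 0.31 on the log2 scale. The call of MEF2C was lost when LOC550643 siRNA replicate 1 was left out (limma adjusted p = 0.0929), and likewise for LOC550643 siRNA replicate 3 (0.0871), control replicate 1 (0.155), control replicate 2 (0.0781) and library totals alone (0.0909). Of 10 parts of the ubiquitin ligases that degrade JUN or FOS proteins, 3 rose, 0 fell and 7 did not pass (list median on the log2 scale 0.10), again near the 35.3% over all genes tested. CUL4A rose by 0.35, DDB1 by 0.31 and CUL1 by 0.28, and RBX1 was at -0.28 and did not pass (limma adjusted p = 0.0559). Without LOC550643 siRNA replicate 2 the calls of DDB1 (limma adjusted p = 0.0505) and CUL1 (0.0597) were lost, leaving 1 of the 10 called higher, and without control replicate 1 that of CUL4A was lost (0.0544). RBX1 was called lower without control replicate 2 (-0.40, limma adjusted p = 0.00826), with library totals alone (-0.35, limma adjusted p = 0.0253) and by DESeq2 (-0.28, adjusted p = 0.0422).

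Of 25 other immediate-early genes, 24 were tested, 6 rose, 2 fell and 16 did not pass (list median on the log2 scale 0.09), a called share near the 35.3% over all genes tested. ARC, a gene of neuronal activity, rose by 0.85 to 5.76 ± 0.315 CPM with LOC550643 siRNA, against 3.17 ± 0.0686 CPM with control siRNA (SD, n = 3 each). CYR61, a matrix-associated signalling protein, rose by 0.57, SRF, which is also among the promoter factors above, by 0.39 and the zinc finger factor KLF6 by 0.38 on the log2 scale. The number called higher was 9 without LOC550643 siRNA replicate 1, 4 without LOC550643 siRNA replicate 2 or 3 and 4 without control replicate 3. It was also 4 with library totals alone.

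Of 24 genes known as AP-1 targets, 16 were tested, and 5 rose, 5 fell and 6 did not pass (list median on the log2 scale -0.12). Over all genes tested 17.1% were higher and 18.2% lower. The 8 not tested, among them the collagenase MMP1, looked up after the values were seen, were too low for the test. The growth factor TGFB1 averaged 141.0 ± 7.91 CPM with LOC550643 siRNA and 91.9 ± 2.08 CPM with control siRNA (SD, n = 3 each; log2 fold change 0.62, limma adjusted p = 5.18e-05). The cell cycle driver CCND1 rose by 0.49 and the membrane linker EZR by 0.41, while HMOX1, a haem-degrading stress enzyme, fell by 0.49 on the log2 scale. The number called lower was 2 without LOC550643 siRNA replicate 1, 1 without control replicate 1 and 3 without control replicate 3.

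**Figure D4:**
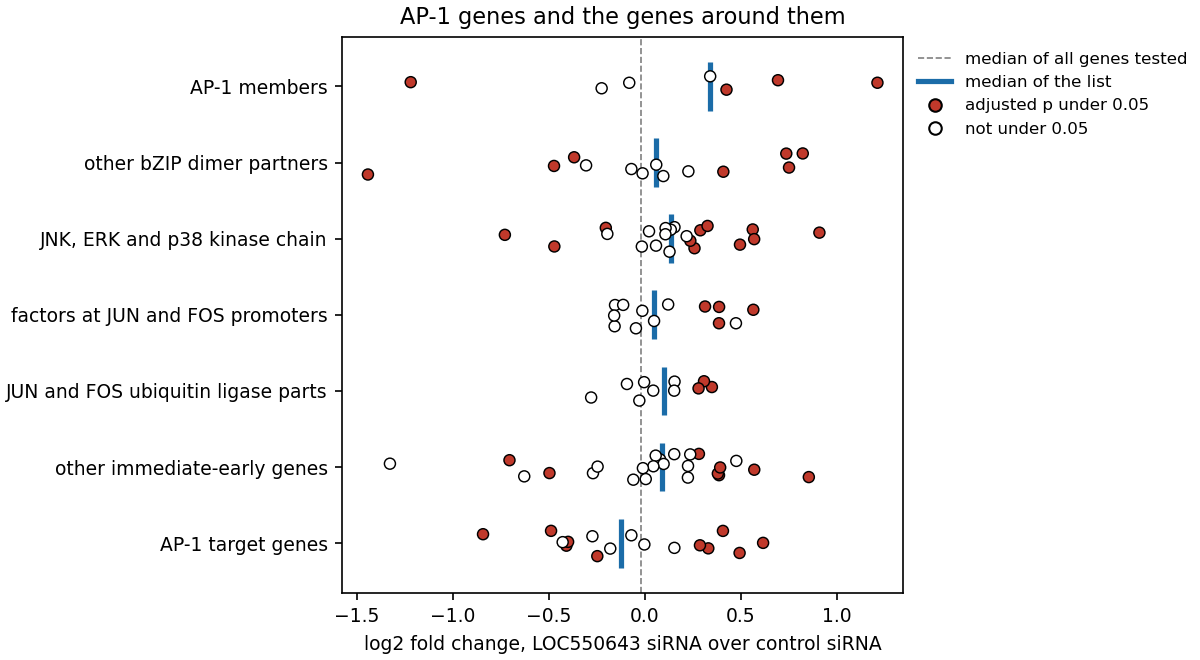
Log2 fold change, LOC550643 siRNA over control siRNA, of each tested gene in the 7 lists, with red points where the adjusted p was under 0.05, blue bars for list medians and a dashed line at the median of all genes tested (-0.02). Each list but the promoter factors and the ligase parts has called genes on either side of 0. The AP-1 members have the highest list median (0.34, the value of FOSB, which did not pass) and the target genes the lowest (-0.12).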

How the data were processed

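The 6 samples gave paired reads of 75 bases from dUTP libraries, per the labels. Alignment to hg19 used STAR 2.4.0k and the authors' comparison edgeR 3.6.8, per the labels; HOMER did the counting over exons, per the file headers. What the authors deposited per library is a signal, exon coverage brought to totals of 29401170 to 29401184. All of these values (100%) lie within 0.1 of a whole multiple of 1 step per library, taken here, from the values, as 1 read end. The deposited log2 fold changes and the deposited p-values are quoted only beside values computed here.

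Groups were compared by limma 3.58.1 (two-sided, trended empirical Bayes) on TMM-scaled log2(value + 1 deposited unit), with Benjamini-Hochberg adjustment over the 16245 genes kept by edgeR's filter (minimum 10 read pairs). The unit added matters for low genes: FOSL1 was at -1.30 with a pseudocount of 0.1, -1.22 with 1 and -0.77 with 10. On recovered reads edgeR gave FOSL1 -1.15 and DESeq2 -1.18, both smaller falls than the -1.22 of the main fit. CPM are deposited values over the TMM-scaled total. Alternatives used edgeR 4.0.16 and DESeq2 1.42.0 on the recovered reads, in R 4.3.3. The scripts were tested on simulated data.

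Members and lists were chosen with earlier results of these data known. The text names all members, up to 4 genes of smallest p per other list and the 5 genes most like JUN, and says which others were looked up. The labels do not give separate cultures or passages for the replicates, whose spread may then be technical. Replicates differed by more than sampling noise, with a chi-square over its degrees of freedom of 5.24 to 39.4, and of 29.6 and 39.4 for control replicate 2. Transcript and gene overlaps came from GENCODE release 44 on GRCh37, the build of hg19.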

Additional observations from a re-analysis of the deposited data

How the results depend on the processing

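The rises of JUN, JUND and FOSL2 passed under all 22 alternatives run, with log2 fold changes of 1.11 to 1.37, 0.35 to 0.47 and 0.60 to 0.76, and FOSB passed under none (0.19 to 0.45). With 1 library left out, FOSL1 ran from -1.43 to -1.01 and JUNB from -0.30 to -0.14, FOS from -0.31 to 0.14, and the number of members called lower was 0 or 1. FOS turned to 0.0836 without control replicate 2 and 0.135 without LOC550643 siRNA replicate 1. At an adjusted p under 0.01 FOSL1 (-1.22) was not called, which left 0 members lower, 1732 genes higher and 1766 lower. A minimum mean of 1 CPM removed FOSL1 (0 members lower), and it could not be tested on thinned libraries. JUNB passed with library totals alone (-0.299, so 2 members lower) and on thinned libraries (-0.274). JUN's share differed by 8.73 percentage points without division by exon length, and by 10.7 to 13.6 with 1 library left out.

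Genes higher and lower were 2785 and 2953 (48.5% of calls higher), and 2081 and 3976 with library totals alone (34.4% higher). Same-numbered libraries did not deviate together (correlations 0.0584, -0.283 and -0.12). With so few libraries per group, these correlations cannot decide whether the numbers pair them. With the replicate number as a block (replicate block), limma called 2575 genes higher and 2733 lower, with JUN at 1.21, and no member's call changed, while RBX1 was called lower with it (-0.279, limma adjusted p = 0.0224). On recovered reads edgeR called 2859 higher and 2992 lower. For the 29 other genes named by the rule, 623 of 638 values kept direction and call, 10 lost the call, 5 gained it and 0 reversed. One alternative, edgeR on read pairs, was added after the data were seen. FOSL1, FOS and FOSB rest on the fewest read ends of the members, and what limits their estimates was not tested.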
